A study of Mus musculus with 6 samples.

Results

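The genes described here encode the machinery that makes peptides and loads them onto classical major histocompatibility complex (MHC) class I molecules. They are 10 of the 23992 gene symbols in the deposited count table, chosen by name: Tap1, Tap2, Tapbp, Psmb8, Psmb9, Psmb10, B2m, H2-K1, H2-D1 and Nlrc5. For each symbol the transcript row with the most reads over all libraries was kept, and all 10 passed the low-count filter. RNA was sequenced from regulatory T cells (Treg cells) of male CD45.2 mice, in 3 libraries labelled KO and 3 labelled WT. Per the labels, the KO genotype was Foxp3YFP-Cre/YCrlf2fl/fl, in which the floxed gene for the TSLP receptor subunit meets a Cre recombinase driven by Foxp3, and the WT genotype was Foxp3YFP-Cre/Y. Both groups therefore carried the Foxp3YFP-Cre allele, and cells were sorted as live, CD4-positive and positive for its yellow fluorescent protein, from spleen and lymph nodes that had been pooled, per the labels. The title of the deposited table names lung instead, so the sources conflict on the tissue. No age or treatment was given for these libraries, nor whether a library came from 1 mouse or several.

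Class I molecules display peptides from inside the cell to CD8 T cells and natural killer cells. Proteasomes cut proteins, TAP carries the peptides into the endoplasmic reticulum, tapasin holds an empty class I molecule next to TAP, and the heavy chain then leaves with beta-2-microglobulin and its peptide. Interferons raise most of these genes, partly through IRF1 and the transactivator NLRC5, which acts on class I promoters at a conserved element called the SXY module.

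The sequences upstream of B2m, H2-D1 and H2-K1 are shown because they carry the same pair of motifs at the same spacing, and the stretch between Psmb9 and Tap1 because both genes start from it in opposite directions and both fell in KO. They come from RefSeq (GRCm38.p6, the assembly of mm10). The first line is chr2:122147497-122147686 (plus strand), the second chr17:35262904-35263093 (plus strand) and the third chr17:34000348-34000537 (minus strand), each ending at the last base before the start that RefSeq gives. The fourth is the 225 bases of chr17:34187331-34187555 (plus strand) between the RefSeq starts of the divergent pair, with Psmb9 to its left and Tap1 to its right. GENCODE, from which the gene positions given further on are taken, has longer models that begin further upstream for Psmb9, Tap1 and H2-D1, so by GENCODE the H2-D1 stretch lies inside H2-D1 and the fourth inside Psmb9. Capitals mark matches to the motifs listed after the sequences.
B2m: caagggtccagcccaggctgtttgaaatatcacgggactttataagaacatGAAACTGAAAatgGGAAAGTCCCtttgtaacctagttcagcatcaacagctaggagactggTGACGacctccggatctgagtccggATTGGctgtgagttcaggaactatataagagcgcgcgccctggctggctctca
H2-D1: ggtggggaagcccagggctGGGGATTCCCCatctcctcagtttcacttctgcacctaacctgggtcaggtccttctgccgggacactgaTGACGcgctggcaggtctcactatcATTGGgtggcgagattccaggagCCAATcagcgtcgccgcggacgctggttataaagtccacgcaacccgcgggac
H2-K1: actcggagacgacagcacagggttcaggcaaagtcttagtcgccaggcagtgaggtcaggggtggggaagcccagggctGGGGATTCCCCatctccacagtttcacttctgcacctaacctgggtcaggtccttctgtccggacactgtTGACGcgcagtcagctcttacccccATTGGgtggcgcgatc
Tap1 and Psmb9: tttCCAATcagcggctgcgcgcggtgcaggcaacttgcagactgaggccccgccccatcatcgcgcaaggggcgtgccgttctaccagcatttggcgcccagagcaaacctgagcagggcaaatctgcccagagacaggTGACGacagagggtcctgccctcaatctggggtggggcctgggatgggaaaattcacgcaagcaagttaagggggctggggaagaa

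Motifs were searched on both strands in the 300-base windows that RefSeq promoters cover, and 8 of the 10 genes had an entry, Tap2 and Nlrc5 being the others. A CRE-like TGACG, as in the X2 box of the SXY module, was in 20.8% of all 32851 entries, and CCAAT (the Y-box core, ATTGG on the other strand) in 37.4%. TGACG with ATTGG starting 25 bases further on was in 31 entries (0.0944%), among them B2m, H2-D1 and H2-K1, where the pair began 78, 101 and 41 bases before the start. This spacing was noted in the 3 genes before it was counted elsewhere. Just upstream of TGACG the printed H2-D1 and H2-K1 sequences are nearly identical, so their shared motifs are not independent instances. A kB-like motif (GGGGA and TCCCC with 1 base between), held by 16 entries (0.0487%), occurred in H2-D1 and H2-K1, and another (GGGA and TTTCC with 1 base between, 0.411% of entries) in B2m. An ISRE-like motif (GAAA and GAAA with 2 bases between), as bound by interferon regulatory factors, was in 3.44% of entries and, of the 8, in B2m. A GAS-like TTCNNNGAA was in 8.30% of entries and, of the 8, in Psmb8. No match overlapped another, and a match is a description of letters, not of a bound site. Only exact letters were searched, so a gene without a match may still hold a variant of that motif.

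**Figure D1:**
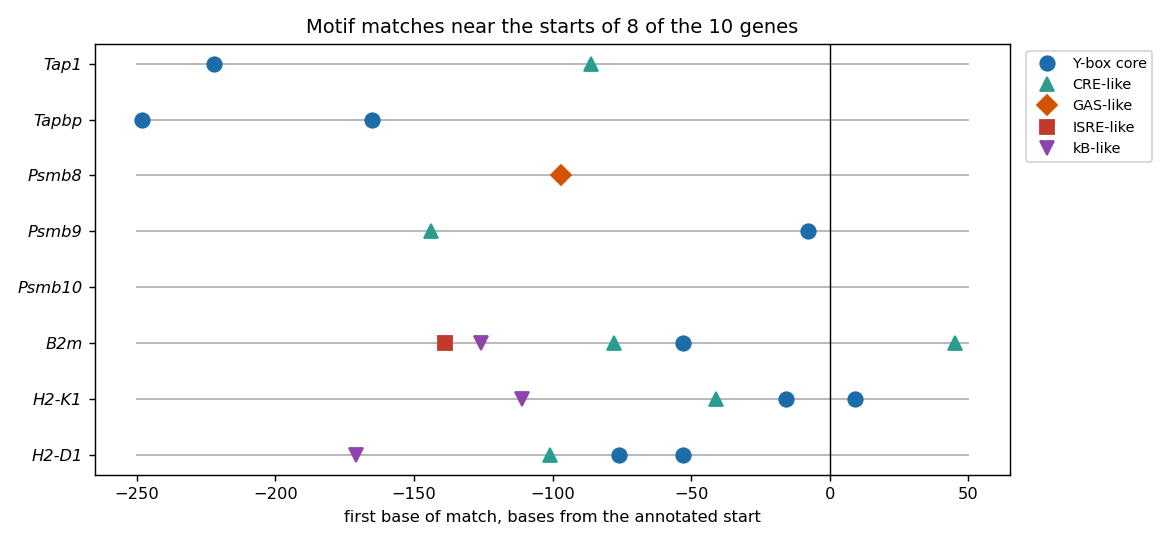
Positions of motif matches from 250 bases before to 50 bases after the RefSeq start of 8 of the 10 genes (x axis: first base of the match, in bases from the start; 1 line per gene). B2m, H2-K1 and H2-D1 carry a CRE-like match (triangle) followed 25 bases on by a Y-box core (circle), at 78, 41 and 101 bases before the start; Psmb10 has no match.

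Library totals ran from 9649588 to 18352405 counts in KO and from 1439740 (WT replicate 2) to 12180562 counts in WT. Crlf2 was at 6.44 ± 2.76 CPM in the KO libraries and 115 ± 27.7 CPM in the WT libraries (n = 3 each, ± SD; CPM are counts scaled to library size, with TMM factors). This matches titles and genotype tags, while the description of each sample names the opposite strain. Treg markers (8 of 8 in the table) made up 0.385% to 0.412% of KO counts and 0.204% to 0.415% in WT, and pan-T markers (13 of 13) 0.830% to 0.932% in KO and 0.459% to 0.797% in WT, the lowest values being those of WT replicate 3. Markers of other cell types were present. Lung epithelial markers (14 of 14) took 0.245% to 1.97% in KO and 1.71% to 7.60% in WT, where the labels name spleen and lymph node and the table's title lung. Erythroid markers (9 of 10 in the table) took 0.192% to 0.284% in KO, against 0.171%, 0.686% and 14.5% in the WT replicates. Macrophage and monocyte markers (11 of 13) took 0.267% to 0.288% in KO and 0.0394% to 0.753% in WT. Markers of MHC class II (4 of 4), B cells (5 of 5), dendritic cells (5 of 5), CD8 T and NK cells (5 of 5) and neutrophils (5 of 5) were also highest in WT replicate 3, at 0.424%, 0.0289%, 0.0119%, 0.0111% and 0.0366%, against at most 0.0786%, 0.00275%, 0.00285%, 0.00260% and 0.00514% elsewhere. Endothelial (4 of 4) and fibroblast (4 of 4) markers took at most 0.0125% and 0.00308%. No marker in the table was at 0 in all 3 libraries of a group.

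In KO, 4 of the 10 genes fell: Tap1, Tapbp, Psmb9 and Psmb10. None rose. All 10 log2 fold changes (KO over WT) were negative, as were 54.2% of all, with H2-K1 turning to 0.13 when library totals alone were used for scaling. A gene is called here when its adjusted p is under 0.05 in edgeR's two-sided quasi-likelihood test (Benjamini-Hochberg over all 12720 tested genes). By this rule 0.983% of all tested genes were called lower in KO and 0.755% higher. The median log2 fold change of the 10 genes was -0.64, beside -0.04 over all tested genes. Of the 10, 8 had groups that did not overlap, all with KO lower, where 11.5% of all tested genes did so with KO lower and 10.4% with KO higher. The same 8 had an unadjusted p under 0.05, where 9.13% of all tested genes did so with KO lower. These p-values measure the spread between these samples, since the labels do not say that replicates came from separate mice. In bulk RNA, fewer cells of a type and less RNA per cell cannot be told apart.

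**Figure D2:**
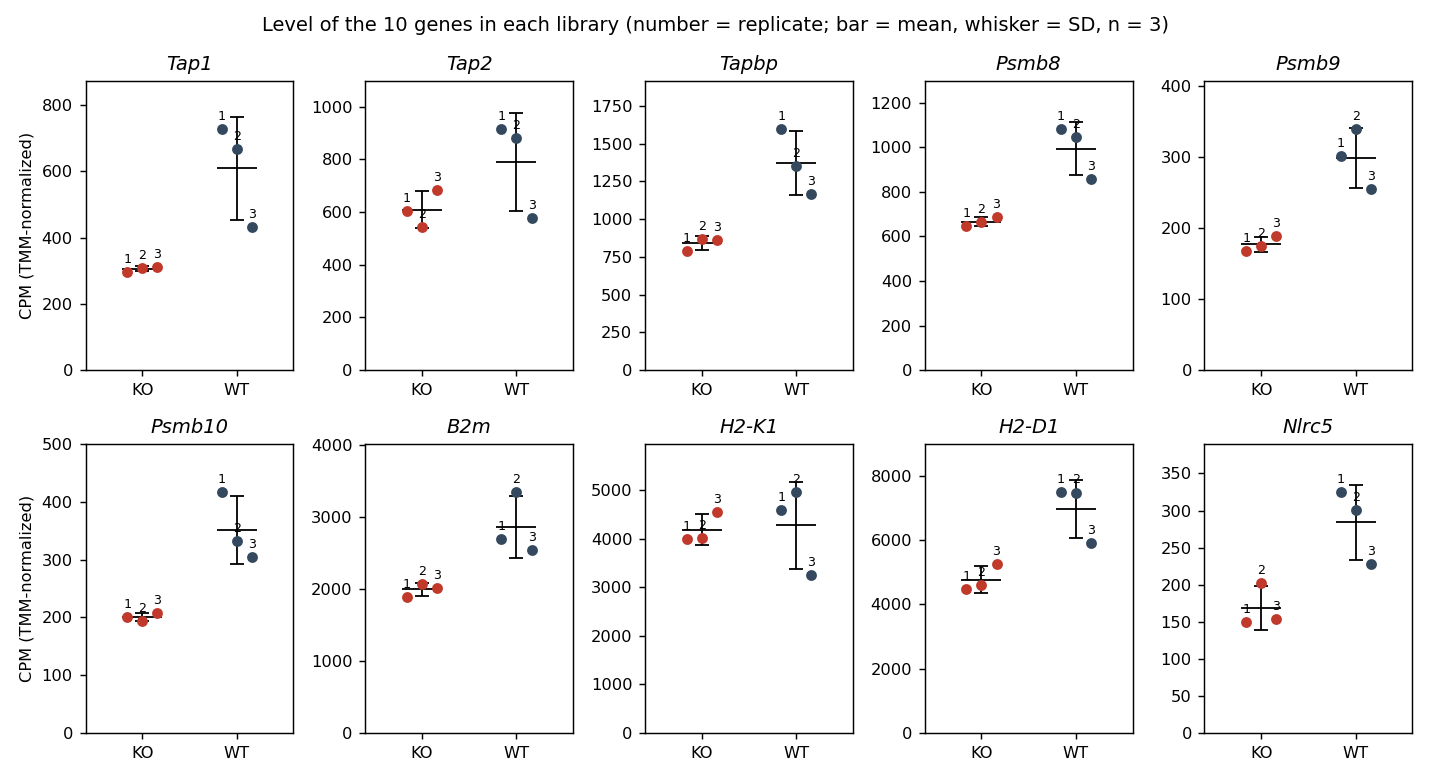
TMM-normalized CPM of each of the 10 genes in the 3 KO libraries (left) and 3 WT libraries (right); numbers are replicates, bars are means and whiskers SD (n = 3). For 8 genes every KO library lies under every WT library, while Tap2 and H2-K1 overlap, and WT replicate 3 is the lowest WT library in all 10 panels.

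Of the genes that move and hold peptides at the endoplasmic reticulum, Tap1 and Tapbp fell in KO and Tap2 did not pass the test. Tap1 (chr17:34187553-34197225, plus strand, protein coding, as annotated by GENCODE on mm10) encodes the first chain of the peptide transporter. It was at 298, 308 and 312 CPM in KO replicates 1 to 3, against 728, 668 and 432 CPM in WT replicates 1 to 3. All KO libraries lay under all WT libraries, and the KO values lay closer together than the WT values. The log2 fold change was -0.99 (SE 0.18, adjusted p = 0.0438 in edgeR), so that KO held 50.2% of the WT level. Tapbp (chr17:33915899-33929292, plus strand) encodes tapasin, the bridge between TAP and class I. It was at 786, 868 and 864 CPM in KO, against 1595, 1351 and 1168 CPM in WT, again with no overlap. Its log2 fold change was -0.71 (SE 0.13, adjusted p = 0.0438 in edgeR).

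Tap2 (chr17:34203527-34216321, plus strand) encodes the partner chain of TAP1. It was at 603, 542 and 683 CPM in KO, against 914, 882 and 577 CPM in WT. WT replicate 3 lay inside the KO range, and the log2 fold change was -0.38 (SE 0.18, adjusted p = 0.364 in edgeR). The number of Tap2 reads per Tap1 read, a ratio chosen after its values were seen and not tested, was 2.02, 1.76 and 2.19 in KO and 1.26, 1.32 and 1.34 in WT, so these groups did not overlap. The calls of Tap1 and Tapbp were lost when any 1 library other than WT replicate 3 was left out (edgeR adjusted p = 0.0967 to 0.252). Without WT replicate 3 all 3 genes were called lower (edgeR adjusted p = 0.00172 to 0.0396).

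The inducible catalytic subunits of the immunoproteasome were lower in every KO library than in any WT library, and 2 of the 3 were called. These subunits replace the constitutive ones in newly built proteasomes and change which peptides are cut. Psmb10 (MECL-1; chr8:105935735-105938444, minus strand) was at 200.1, 195 and 208 CPM in KO, against 418, 333 and 305 CPM in WT. It fell by 0.81 on the log2 scale (SE 0.14, edgeR adjusted p = 0.0340). Psmb9 (LMP2; chr17:34181987-34187764, minus strand) was at 168, 175 and 189 CPM in KO, against 302, 339 and 256 CPM in WT. The KO libraries again lay close together, and the log2 fold change was -0.75 (SE 0.14, adjusted p = 0.0401 in edgeR).

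Psmb8 (LMP7; chr17:34197721-34201454, plus strand) was the most abundant of the 3 per length, with 544 ± 17.4 CPM per kilobase in KO and 812 ± 98.5 in WT (n = 3 each, ± SD). Its libraries held 646, 663 and 688 CPM in KO, and 1080.3, 1044 and 856 CPM in WT. The groups did not overlap, but the log2 fold change of -0.58 (SE 0.12) missed the threshold (edgeR adjusted p = 0.0534). The calls of Psmb9 and Psmb10 were lost when any 1 library other than WT replicate 3 was left out (edgeR adjusted p = 0.0771 to 0.239). All 3 genes were called without WT replicate 3 (edgeR adjusted p = 0.00806 to 0.00808).

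The constitutive subunits that these 3 replace gave no call. Psmb5, which Psmb8 replaces, was at 144 ± 15.7 CPM in the KO libraries and 123 ± 9.59 CPM in the WT libraries (n = 3 each, ± SD; log2 fold change 0.23, SE 0.14). Psmb6, the counterpart of Psmb9, had a log2 fold change of -0.16 (SE 0.15), and Psmb7, the counterpart of Psmb10, one of -0.14 (SE 0.14). Scaled to pan-T counts Psmb5 turned to -0.08, and with library totals alone Psmb6 and Psmb7 turned to 0.02 and 0.05. A ratio of inducible to constitutive subunit within a library does not depend on such scaling, and all 3 ratios were lower in every KO library. Reads per length of Psmb8 were 3.56, 3.32 and 3.06 times those of Psmb5 in KO, and 6.87, 5.87 and 4.69 times in WT. For Psmb9 over Psmb6 the ratios were 1.03, 1.31 and 1.08 in KO, and 1.48, 2.21 and 1.51 in WT. For Psmb10 over Psmb7 they were 2.55, 2.36 and 2.89 in KO, and 4.85, 4.12 and 3.45 in WT. On the log2 scale the differences of the group means (KO minus WT) were -0.80, -0.59 and -0.66. An exact two-sided permutation test gave p = 0.1 for each (0.1 adjusted over the 3 ratios), the smallest p that 3 against 3 libraries allow.

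**Figure D3:**
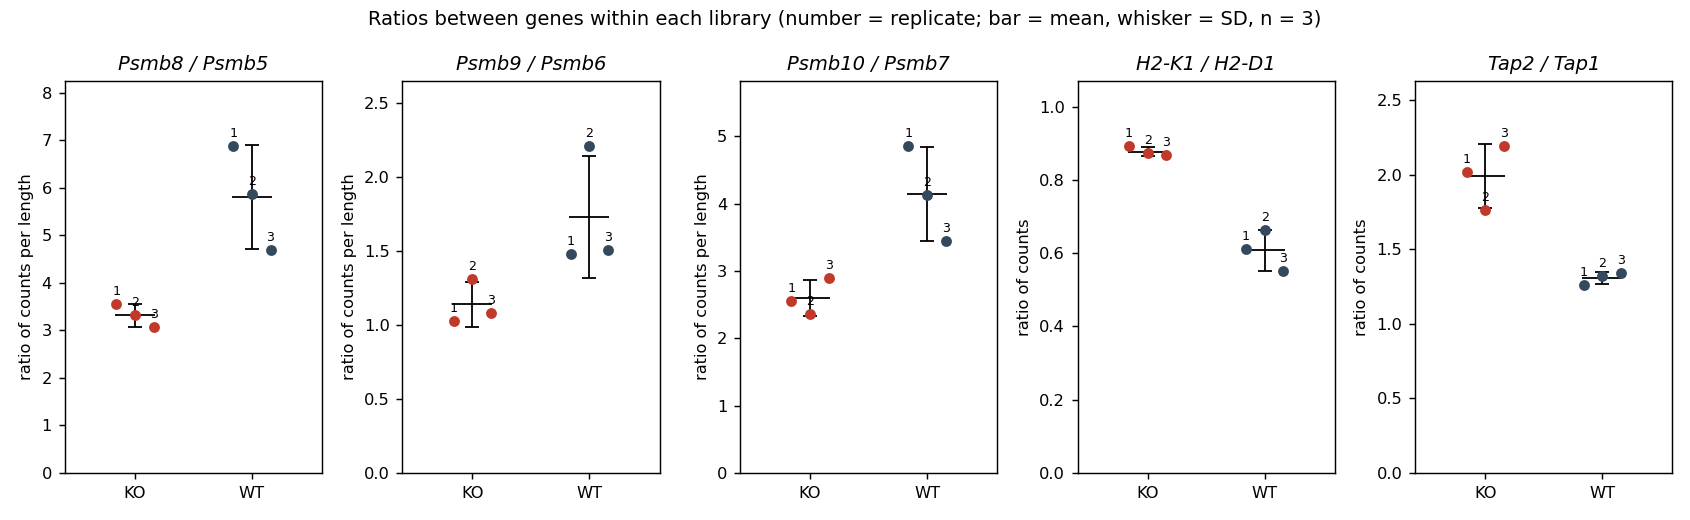
Ratios within each library for KO (left) and WT (right): 3 inducible over constitutive proteasome subunits (reads per length), H2-K1 over H2-D1 and Tap2 over Tap1 (reads); numbers are replicates, bars are means and whiskers SD (n = 3). The proteasome ratios are lower in all KO libraries than in any WT library, and both other ratios are higher in all KO libraries.

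Of the class I chains themselves none was called, and H2-K1 was the one whose groups overlapped. Per length these were among the most abundant transcripts: H2-D1 ranked 17 in KO and 17 in WT among 12720 tested genes, H2-K1 ranked 19 in KO and 29 in WT, and B2m 22 in both. B2m (chr2:122147686-122153083, plus strand) encodes beta-2-microglobulin, the light chain that every class I molecule needs to reach the surface. It was at 1891, 2075 and 2012 CPM in KO, against 2697, 3349 and 2537 CPM in WT. H2-D1 (chr17:35262730-35267499, plus strand) encodes the D heavy chain. It was at 4476, 4597 and 5251 CPM in KO, against 7501, 7484 and 5919 CPM in WT. Neither gene had overlapping groups. The log2 fold changes were -0.52 (SE 0.12, edgeR adjusted p = 0.0863) for B2m and -0.55 (SE 0.12, edgeR adjusted p = 0.0731) for H2-D1.

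H2-K1 (chr17:33996017-34000347, minus strand) encodes the K heavy chain. It was at 3991, 4014 and 4556 CPM in KO, against 4594, 4963 and 3261 CPM in WT. The groups overlapped, WT replicate 3 being the lowest of all libraries, and the log2 fold change was -0.03 (SE 0.16, adjusted p = 0.952 in edgeR). H2-K1 reads per H2-D1 read, a ratio chosen after its values were seen and not tested, were 0.892, 0.873 and 0.868 in KO and 0.612, 0.663 and 0.551 in WT. All KO ratios lay above all WT ratios. Reads of class I genes can be shared: of the 50-base words in the H2-D1 transcript 14.3% also occur in transcripts of other genes (7.40% in H2-Q1, 5.31% in H2-K1), and 8.79% of those of H2-K1 do (6.94% in H2-D1). The row named H2-L, for a closely related heavy chain, held 69.6% to 70.6% as many reads as H2-D1 in KO and 70.5% to 72.6% in WT. This ratio hardly varied, and whether both rows count the same reads was not tested. Words were sought in GENCODE transcripts only, and H2-L was not among the genes sharing most words with H2-D1. The 14.3% may therefore leave out reads shared with the H2-L row. B2m, Psmb10 and Nlrc5 shared no such word, whereas 12.5% of the words of Psmb9 lie in Tap1 models (the GENCODE models of both genes overlap at their starts, on opposite strands), and 19.0% of those of Tapbp in the model Gm19412. How the authors counted reads that fit several genes is not given in the sources used here. Without WT replicate 3, B2m and H2-D1 were called lower (edgeR adjusted p = 0.0232 and 0.00907) and H2-K1 was not (adjusted p = 0.334).

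Nlrc5 (chr8:94434356-94527272, plus strand), the transactivator of class I genes, was at 149.9, 203 and 153 CPM in KO, against 325, 300.4 and 228 CPM in WT. Every KO library lay under every WT library. The log2 fold change was -0.75 (SE 0.18), which did not pass the test (edgeR adjusted p = 0.0863) but did without WT replicate 3 (edgeR adjusted p = 0.0181). Per length it was the least abundant of the 10 genes, at 24.3 ± 4.25 CPM per kilobase in KO and 40.9 ± 7.30 in WT (n = 3 each, ± SD).

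**Figure D4:**
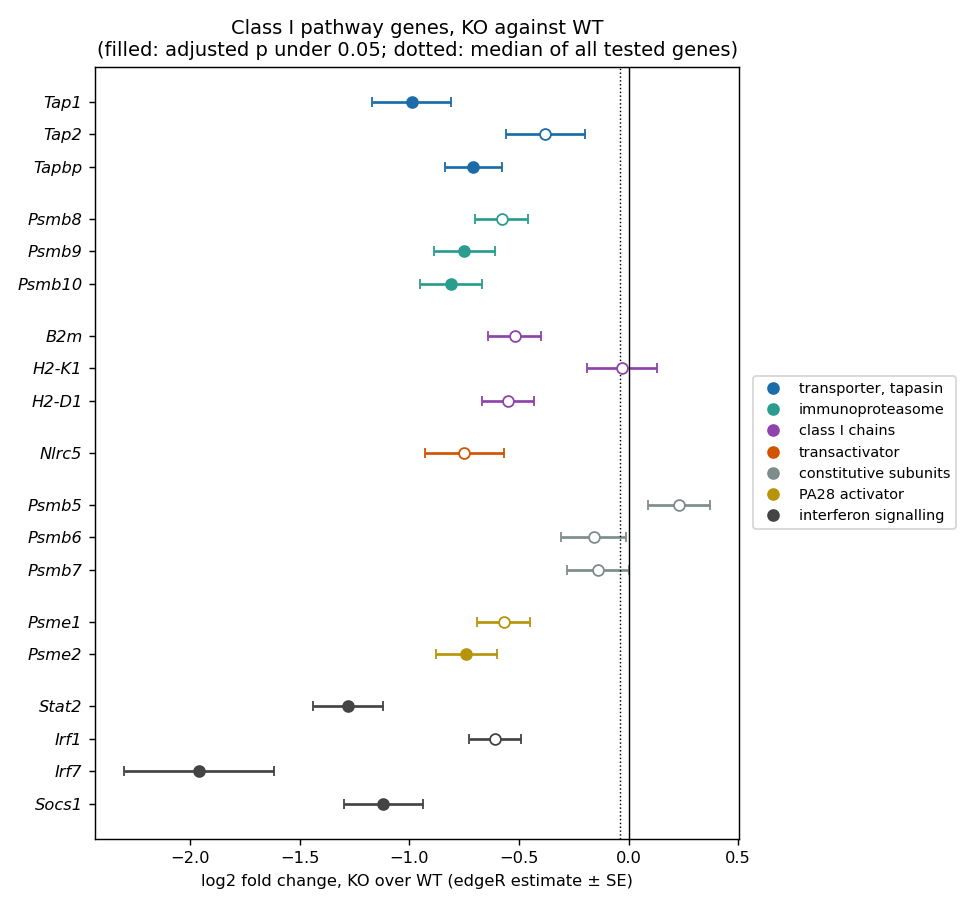
Log2 fold changes, KO over WT (edgeR estimate, whiskers ± SE), of the 10 genes and of related genes; filled symbols have an adjusted p under 0.05, and the dotted line is the median of all tested genes at -0.04. Tap1, Tapbp, Psmb9 and Psmb10 are filled, H2-K1 lies at -0.03, the constitutive subunits lie between -0.16 and 0.23, and Stat2, Irf7 and Socs1 lie between -1.96 and -1.12.

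Among 14 genes of interferon receptors, kinases, transcription factors and their inhibitor Socs1, 3 were called lower in KO and none higher, 9 log2 fold changes being negative and 5 positive. Of all 12720 tested genes, 2018 had an unadjusted p under 0.05 in edgeR, 1161 of them with KO lower. Among the 14 genes, 5 were lower and 3 higher in KO at that threshold. The 3 were Ifnar1 and Ifnar2, which encode the type I interferon receptor, and the kinase gene Tyk2, named after their values were seen, with log2 fold changes of 0.37, 0.45 and 0.45 (edgeR adjusted p = 0.174, 0.230 and 0.185) and no overlap between the groups. With pan-T scaling these were 0.09, 0.17 and 0.19. Stat2, a transcription factor of type I interferon signalling, was at 81.4, 94.8 and 77.6 CPM in KO, against 235, 211 and 172 CPM in WT. All KO libraries lay under all WT libraries (log2 fold change -1.28, SE 0.16, adjusted p = 0.0131 in edgeR). Irf7, an amplifier of type I interferon, fell by 1.96 on the log2 scale (SE 0.34, edgeR adjusted p = 0.0449). It was at 84.5, 180 and 83.1 CPM in KO replicates 1 to 3, against 556, 441 and 353 CPM in WT. Socs1, a feedback inhibitor, fell by 1.12 on the log2 scale (SE 0.18, edgeR adjusted p = 0.0268). Irf1, an activator of Tap1, Psmb9 and B2m, was at 142, 175 and 158 CPM in KO, against 232, 252 and 241 CPM in WT. These groups did not overlap, and Irf1 missed the threshold (log2 fold change -0.61, SE 0.12, adjusted p = 0.0549 in edgeR). Of the 3 calls, Stat2 and Irf7 held without KO replicate 2 (edgeR adjusted p = 0.0290 and 0.00996) and all 3 without WT replicate 3, while none held without any 1 of the other libraries. The median of the 14 genes was -0.43. For 20 antiviral genes that interferon induces, a group of which 12 were called lower and which overlaps these 14 at Irf7, it was -2.37, beside -0.64 for the 10 class I genes. KO replicate 2 was the highest KO library for each of the 20 antiviral genes.

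The factors that bind the SXY module or act at it were not called. Of 9 such genes, 6 had a negative and 3 a positive log2 fold change (median -0.08). None had an unadjusted p under 0.05 in the edgeR fit with TMM. In other fits Rfxap, at 0.51 there, ran from 0.24 with pan-T scaling to 0.87 without WT replicate 2 (edgeR unadjusted p = 0.0046, adjusted p = 0.12). In limma-voom it was 0.76 (unadjusted p = 0.00726, adjusted p = 0.103). The subunits of the RFX complex were at 11.1 ± 3.76 CPM in the KO libraries and 10.2 ± 5.71 CPM in the WT libraries for Rfx5, at 27.8 ± 0.721 CPM in the KO libraries and 20.3 ± 8.47 CPM in the WT libraries for Rfxap, and at 65.1 ± 10.2 CPM in the KO libraries and 74.6 ± 7.73 CPM in the WT libraries for Rfxank (n = 3 each, ± SD). The log2 fold change of Rfx5, 0.07 (SE 0.48), lay between -0.20 and -0.03 in fits with pan-T scaling, limma-voom, the erythroid share as covariate, or without 1 of KO replicates 1 and 2 and WT replicates 2 and 3.

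Of the other proteasome genes, only Psme2 was called. It encodes a subunit of the PA28 activator, which opens the proteasome core and is induced by interferon. Psme2 was at 251, 247 and 254 CPM in KO, against 489.6, 415 and 348 CPM in WT (log2 fold change -0.74, SE 0.14, adjusted p = 0.0449 in edgeR). This call held without WT replicate 3 (edgeR adjusted p = 0.00672) and was lost without any 1 of the other libraries (adjusted p = 0.0967 to 0.242). Psme1, which encodes the partner subunit, was at 205 ± 16.3 CPM in the KO libraries and 305 ± 21.9 CPM in the WT libraries (n = 3 each, ± SD; log2 fold change -0.57, SE 0.12, adjusted p = 0.0572 in edgeR). Of 9 activator and assembly genes, 1 was called lower and the median was -0.21. None of 11 other subunits of the core particle was called by edgeR, and 3 had an unadjusted p under 0.05, all with KO lower. Their median was -0.26, and those of smallest p were the alpha subunit genes Psma2 (log2 fold change -0.39, SE 0.12) and Psma5 (-0.39, SE 0.14). None of 13 loading chaperones and trimming peptidases was called (median -0.19), 3 having an unadjusted p under 0.05 with KO lower and 1 with KO higher. Over all 12720 tested genes 2018 had such a p in edgeR, 1161 of them with KO lower. Calr, which encodes the chaperone calreticulin of the loading complex, was at 60.6 ± 3.81 CPM in the KO libraries and 88.8 ± 9.22 CPM in the WT libraries (n = 3 each, ± SD; edgeR adjusted p = 0.104). Tapbpl, which encodes a tapasin-related peptide editor, was at 109.8 ± 5.16 CPM in the KO libraries and 152 ± 37.6 CPM in the WT libraries (n = 3 each, ± SD; edgeR adjusted p = 0.242).

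The 10 genes varied less among KO than among WT libraries, and WT replicate 3 was the lowest WT library for every one of them. Their coefficient of variation had a median of 5.65% in KO and 16.1% in WT, and it was smaller in KO for all 10 genes and for 73.1% of all tested genes. WT replicate 3 was the lowest WT library for 31.8% of all tested genes. It is also the library with the lowest share of pan-T markers and the highest of erythroid, macrophage and class II markers. The part of these shares in the 10 genes' levels was not tested. As a description of that library, reads of each gene were set against the summed reads of the 13 pan-T markers. WT replicate 3 was then the lowest WT library for 2 of the 10 genes, and KO lay under WT without overlap for all 10, where 19.9% of all tested genes did so on that scale. Both results are partly set by the scale itself. Pan-T markers took their smallest share in WT replicate 3, so the division raises that library for every gene. Of the 13 markers, 11 had a positive log2 fold change, 4 of them at an unadjusted p under 0.05 in edgeR, so the scale also lowers KO. The share of all genes with WT replicate 3 lowest on that scale was not computed. H2-K1 reads were 48.7%, 52.2% and 51.0% of the pan-T reads in KO, and 58.6%, 63.2% and 61.6% in WT. Tap2 reads were 7.35%, 7.04% and 7.65% in KO, and 11.7%, 11.2% and 10.9% in WT. With pan-T scaling in edgeR neither gene was called. The log2 fold change was -0.27 for H2-K1 (edgeR adjusted p = 0.345), a smaller fall than the median of all genes on that scale. For Tap2 it was -0.62 (edgeR adjusted p = 0.0783). This scale moved the median of all genes by -0.30, to -0.34. Relative to it the median of the 10 genes was -0.56, beside -0.60 with TMM and -0.61 with library totals alone, where the median of all genes was 0.14.

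For lung epithelial markers the log2 fold change was negative in 13 of 13 tested (median -1.77), though none was called by edgeR (5 at an unadjusted p under 0.05). Their part in the levels of the 10 genes was not tested, and the values that follow are a description. These markers took 1.6%, 1.97% and 0.245% of counts in KO replicates 1 to 3, and 7.6%, 1.71% and 2.22% in WT replicates 1 to 3. The share of WT replicate 2, the shallowest library, lay inside the KO range. With the lung share added as a covariate, edgeR called none of the 10 genes, 8 having an unadjusted p under 0.05, and called 0 genes in all (0.0% lower). The log2 fold changes were then -0.91 for Tap1, -0.64 for Tapbp, -0.81 for Psmb9 and -0.73 for Psmb10. With the erythroid share as a covariate 9 of the 10 genes were called lower, all but H2-K1, where 1.95% of all tested genes were. DESeq2 called 8 of the 10, all but Tap2 and H2-K1, where it called 3.94% of its genes lower. With library totals alone none of the 10 was called, where 0.448% of all genes were lower, and without robust estimation 1 was (Psmb10), where 0.723% were. Without WT replicate 3, 9 of the 10 were called and 2.13% of all genes. None of the 10 was called without any 1 of the others, where the share of all genes called lower was 0.0151%, 0.62% and 0.0304% without KO replicates 1 to 3, and 0.128% and 0.0749% without WT replicates 1 and 2.

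**Figure D5:**
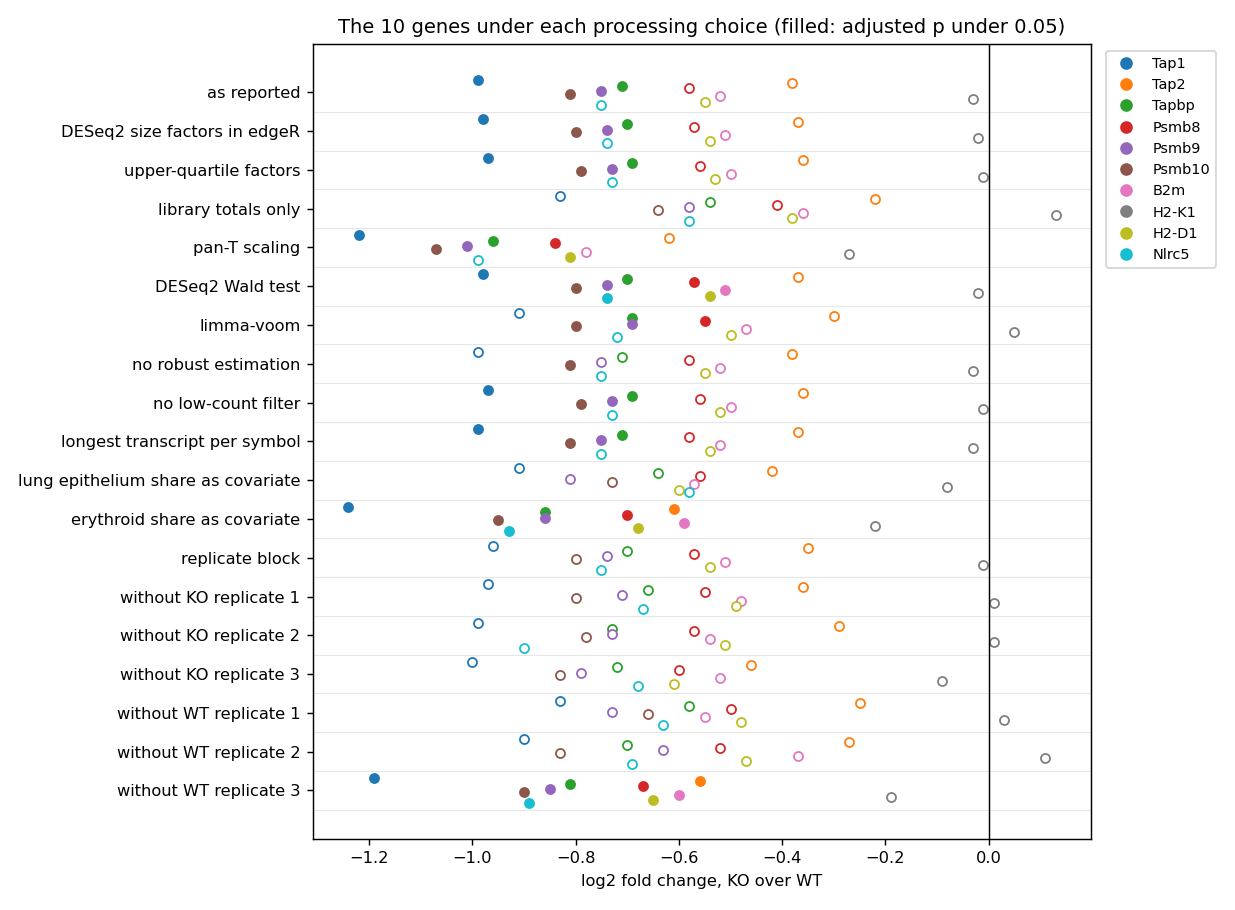
Log2 fold changes, KO over WT, of the 10 genes (colours) as reported and under 18 other processing choices (1 line each); filled symbols have an adjusted p under 0.05. All genes but H2-K1 lie left of 0 in every line, and the filled symbols are absent in the lines with library totals alone, the lung epithelium share or replicate block as a term, and those without any 1 library other than WT replicate 3.

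Across the 6 libraries the 10 genes resembled one another except for H2-K1. Pearson's r of each gene's log2(CPM + 1) with the mean of the other 9 was 0.842 to 0.995 for 9 genes and 0.389 for H2-K1. These coefficients describe 6 libraries of 2 groups and share their depth and scaling. Of 7033 other genes with a mean of at least 20 CPM, 255 (3.63%) had an r of at least 0.9 with the mean profile of the 10. The 5 most alike were Il4ra, which encodes a chain of the IL-4 receptor (r = 0.9962), H2-Q9 and H2-Q7 (both 0.9926), Mrps34, a mitochondrial ribosomal protein gene (0.9917), and H2-T9 (0.9915). H2-Q9 and H2-Q7 held nearly the same reads, at 565, 637 and 700.4 CPM in KO, against 1349, 1384 and 810.2 CPM in WT for H2-Q9. H2-T9 likewise lay close to H2-T22, a gene named after its values were seen. Their means were 210.3 and 212.5 CPM in KO, and 289.6 and 292.1 CPM in WT. None of the 5 most alike genes was called by edgeR. Il4ra was at 283, 308 and 308 CPM in KO, against 476, 481 and 356 CPM in WT (log2 fold change -0.54, SE 0.14, adjusted p = 0.101 in edgeR).

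Of the 10 genes 7 lie on chromosome 17 between the start of Tapbp and the end of H2-D1 (33915899 to 35267499), 4 of them (Psmb9, Tap1, Psmb8 and Tap2) as direct neighbours within the class II region. The other 68 tested genes of that segment had a median log2 fold change of -0.04, equal to that of all tested genes, and 10.3% had KO under WT without overlap. One of them was called, H2-Ob, a class II gene named here after its values were seen, at 6.43, 7.76 and 5.95 CPM in KO, against 30.4, 13.7 and 51.1 CPM in WT (edgeR adjusted p = 0.0466). Of 19 further class I genes tested, 11 had a negative and 8 a positive log2 fold change (median -0.26). They were mostly non-classical but included H2-L, and some of their rows may share reads. The 1 call among them was H2-Q2, also named after its values were seen, which rose to 113 ± 6.52 CPM in KO, against 52.5 ± 5.77 CPM in WT (n = 3 each, ± SD; log2 fold change 1.11, SE 0.14, adjusted p = 0.0162 in edgeR). The call of H2-Ob was lost without any 1 library other than WT replicate 3 (edgeR adjusted p = 0.0505 to 0.259), and that of H2-Q2 without KO replicate 1 (edgeR adjusted p = 0.102), KO replicate 3 (0.126) or WT replicate 2 (0.0526).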

How the data were processed

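The deposited table holds unnormalized read counts for each library and RefSeq transcript, next to transcript lengths, as its header and whole-number values show. The tools were TopHat2 2.2.1, Bowtie2 2.2.6 and bcl2fastq with mm10, per the submitters' processing notes. The sources used here do not give the counting program, strand setting or multi-mapping rule. Each symbol kept its most abundant row (31682 rows, 23992 symbols, 0 rows without a gene, 0 columns unused). Groups follow titles and genotype tags. Genes passed filterByExpr (minimum count 10, minimum total 15; 12720 genes), were scaled by TMM and tested with edgeR 4.0.16 (robust glmQLFit, then glmQLFTest; R 4.3.3), with Benjamini-Hochberg adjustment. SE is the absolute log2 fold change over the square root of F. Alternatives used DESeq2 1.42.0 and limma 3.58.1. A count of 3, the limit a count of 0 allows, equals 0.157 to 2.05 CPM; such limits cover counting error only. No libraries were duplicates (lowest chi-square per degree of freedom 15.1).

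The 10 genes and all lists were chosen with earlier results of these data known. Named genes are the 10, Crlf2, Psmb5 to Psmb7, Psme1, Psme2, Irf1, Rfx5, up to 4 called genes of each pathway list (or the 2 of smallest p where none was called) and the 5 most alike; others are marked. One gene that this rule names is not reported here, and it was left out of its list. Lengths in the deposited table were used for values per kilobase. Gene positions are from GENCODE M21.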

Additional observations from a re-analysis of the deposited data

How the results depend on the processing

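Direction held for 9 of the 10 genes under all 18 alternatives, but the calls did not hold under all of them. edgeR called 221 genes in all (96 higher, 125 lower in KO; 2018 at an unadjusted p under 0.05) and 4 of the 10. The split was 25 higher and 157 lower with pan-T scaling, 137 and 57 with library totals alone, and 32 and 91 with the block. With library totals alone, 0 of the 10 were called; without robust estimation, 1 (Psmb10); with the lung epithelial share, 0 (0 genes in all, 1132 at an unadjusted p under 0.05); with the erythroid share, 9 (470 in all); with DESeq2's Wald test, 8 (863 in all); with pan-T scaling, 6. Leaving out 1 library gave 0 to 9 of the 10 (4 to 518 genes in all): 0 of the 10 without any 1 library other than WT replicate 3, with 4, 124 and 7 genes in all without KO replicates 1 to 3, 33 and 22 without WT replicates 1 and 2, and 518 without WT replicate 3. In each of these fits 8 or 9 of the 10 had an unadjusted p under 0.05. The median of the 10 was -0.90 with pan-T scaling and -0.74 to -0.57 when 1 library was left out. The 3 proteasome ratios kept their sign, with log2 differences of -0.94 to -0.67 (Psmb8 over Psmb5), -0.69 to -0.40 (Psmb9 over Psmb6) and -0.79 to -0.54 (Psmb10 over Psmb7) when 1 library was left out. The cause of these differences was not tested. Over the named genes and alternatives, 530 log2 fold changes kept their direction and side of the threshold, 80 lost the call, 40 gained one and 16 turned. H2-K1 turned to 0.13 with library totals alone, 0.05 in limma-voom, and 0.01, 0.01, 0.03 and 0.11 without KO replicate 1, KO replicate 2, WT replicate 1 and WT replicate 2. Psmb6 and Psmb7 turned to 0.02 and 0.05 with library totals, and Psmb5 to -0.08 with pan-T scaling. Rfx5 turned to -0.18 with pan-T scaling, -0.19 in limma-voom, -0.11 with the erythroid share, and -0.06, -0.07, -0.20 and -0.03 (range -0.20 to 0.53 over the 6 omissions) without KO replicate 1, KO replicate 2, WT replicate 2 and WT replicate 3.

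With the replicate number as a block, 123 genes in all and 0 of the 10 were called. Same-numbered libraries did not deviate together (r = 0.0838, -0.147 and -0.0446). With so few libraries this cannot show whether the numbers pair them, and the labels do not say what a number stands for. WT replicate 2, with 1439740 counts, limits what can be said of low genes such as Rfx5.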
